A study of Saccharomyces cerevisiae with 6 samples.

Results

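The 40S subunit of the yeast ribosome carries a set of ribosomal proteins, most of which are encoded by pairs of paralogous genes. The genes described here are 50 cytosolic small-subunit ribosomal protein genes of Saccharomyces cerevisiae, taken by a fixed list of systematic names from the 6692 gene identifiers of the count tables. The list leaves out RPS9A, RPS9B, RPS14A, RPS14B, RPS28B, RPS31 and ASC1. It holds 7 single-copy genes, 21 complete paralog pairs and RPS28A, whose paralog is not a member. All 50 passed the filter on low counts, with between 52 and 9521 reads per gene and library. The comparison is of 3 Rio1-depleted against 3 control libraries. Rio1 is an atypical protein kinase that acts late in 40S maturation and at the rDNA.

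Depleted cells had been given 500 µM auxin for 1 h, and control cells had not. Both groups were W303 cells of mating type a grown exponentially in YPD at 23 °C, and both carried RIO1-AID, a degron-tagged RIO1 allele, and PADH1-OsTIR1, a plant F-box gene driven by the ADH1 promoter. Both also carried the marker alleles ade2-1 and trp1-1, and further can1-100, his3-11,15 and ura3-1 as well as the leu2 allele of W303. The titles call the control libraries wild type, although their strain field names the degron strain. No library had auxin with untagged Rio1, so effects of auxin and of Rio1 loss cannot be told apart. Separate cultures are not stated for the libraries of a group, and the spread that the p-values rest on may therefore be technical.

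In yeast, transcription of ribosomal protein genes is a large part of the work of RNA polymerase II and is adjusted together to growth conditions. The activator Rap1 binds most of their promoters and recruits Fhl1 and Ifh1. The proteins are imported into the nucleus, join the 18S rRNA in the nucleolus, the body and platform earlier than the head, and the nascent particle is finished in the cytoplasm. Paralogs often encode the same or nearly the same protein, so the cell's supply of that protein depends on the output of both copies.

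Libraries held between 683896 and 1671136 gene counts. Between 45.2% and 65.9% of all entries were multi-aligned reads, which are in no gene's count. The YLR154 reading frames of the rDNA held 4.12% of the counts of depleted library 2, 1.48% of those of control library 1 and at most 0.197% in the rest. RIO1 mRNA stood at 129.7, 112 and 93.7 CPM (counts scaled to a library size of 1000000) in the depleted libraries and at 65.8, 66.3 and 62.9 CPM in the control libraries. Because auxin removes the protein, an mRNA level is no check of the depletion. Of the markers of a cells, STE2, the alpha-factor receptor gene, had 251 to 434 reads per depleted and 287 to 534 per control library, while the alpha-cell genes MF(ALPHA)1, MF(ALPHA)2 and STE3 had at most 8 reads in any library. The a-cell markers STE6, MFA2 and BAR1 had at least 101 reads in every library. AGA2, a further a-cell marker, had 17 to 49 reads per library. MFA1, also an a-cell marker, had only 2 to 16 reads and did not pass the filter. Of the 5 tested a-cell markers BAR1 was lower (log2 fold change -0.38). SAG1, the alpha-cell marker that passed the filter, had 16 to 45 reads per library and was higher (0.83). The part of these markers in the results was not tested.

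All 50 small-subunit genes fell on Rio1 depletion, and for every one the 3 depleted libraries lay below the 3 control libraries. Across the 5195 genes tested, 14.1% were called lower and 20.0% had depleted libraries that all lay below the control libraries. The test was edgeR's quasi-likelihood test with Benjamini-Hochberg adjustment over all tested genes, with calls made at adjusted p-values under 0.05. The largest adjusted p among the 50 genes was 0.0203. The median log2 fold change of the 50 genes was -1.42, against 0.01 for all genes tested, and single genes ran from -2.26 to -0.53. At least 2-fold falls were seen in 46 of the 50, whereas 3.79% of all tested genes were called and at least 2-fold lower. Summed over the 50 genes, the share of gene counts was 4.50%, 4.48% and 4.66% in depleted libraries 1 to 3, and 9.79%, 9.63% and 9.88% in control libraries 1 to 3. The groups do not overlap in this sum. In such bulk libraries, fewer cells with a transcript and less of it per cell cannot be told apart. All falls are relative to the other counted RNA and are not a measure of transcript per cell. Taken per library against the control mean, the median gene stood at -1.45, -1.42 and -1.37 on the log2 scale in the depleted libraries.

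**Figure D1:**
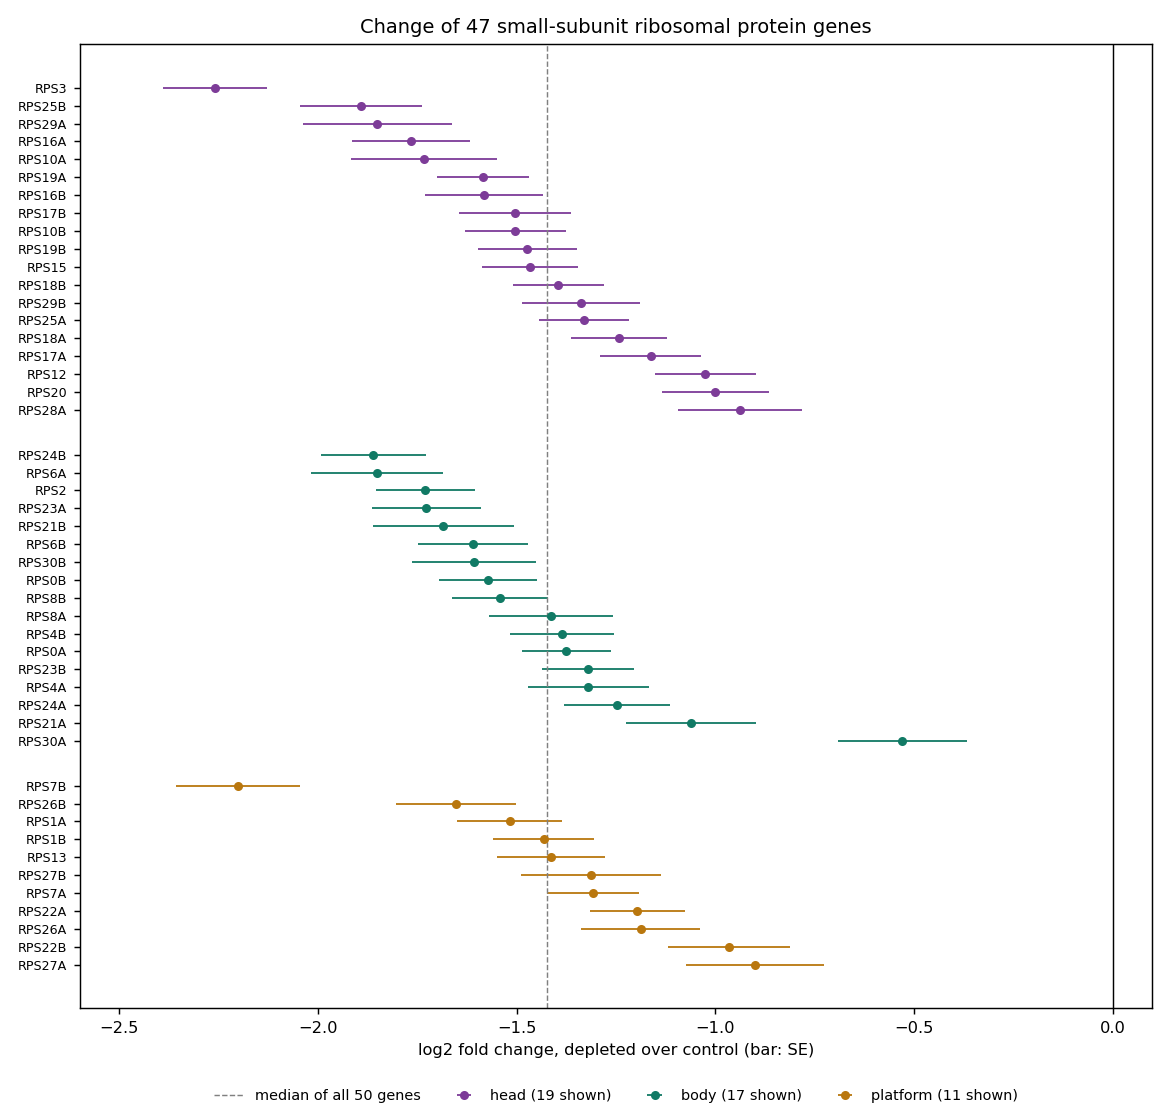
Log2 fold change, depleted over control, of 47 of the 50 genes with its standard error, grouped by the part of the subunit in which the protein sits. All points lie left of 0, from -2.26 in RPS3 to -0.53 in RPS30A, and the dashed line marks the median of all 50 genes, -1.42.

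The direction was shared by all parts of the subunit. The median log2 fold change was -1.47 over the 20 head genes, -1.54 over the 19 body genes and -1.31 over the 11 platform genes, and the ranges overlapped widely. The largest fall of the head was -2.26 (RPS3), of the body -1.86 (RPS24B) and of the platform -2.20 (RPS7B). Genes whose protein has a bacterial counterpart (20 genes) had a median of -1.41, and those with counterparts in archaea or eukaryotes only (30 genes) a median of -1.45. The 7 single-copy genes had a median of -1.41 and the 42 genes of complete pairs a median of -1.45. A coding intron is present in 32 of the 50 genes, against 5.44% of all annotated genes. The 32 had a median of -1.44 and the 18 without one a median of -1.42. None of these medians differed from the others by as much as 1 SD of the log2 fold changes among the 50 genes, which was 0.32.

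Coding length was the property most related to the change across the 50 genes, and only weakly (Pearson r = -0.31, Spearman rho = -0.24). GC content (r = -0.03), intron length (r = 0.04) and the control level per kilobase (r = 0.14) showed less. These are descriptions across genes that share the same 6 libraries, and genes are not replicates.

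Cytosolic large-subunit genes, set beside them, had a similar change. The test called 71 of 74 RPL genes lower, and their median log2 fold change was -1.49. Their share of gene counts was 5.15%, 5.13% and 5.01% in depleted libraries and 11.7%, 11.4% and 11.3% in control libraries. The count of the 50 small-subunit genes over that of the large-subunit genes was 0.873, 0.872 and 0.931 in depleted libraries 1 to 3, against 0.840, 0.847 and 0.874 in control libraries 1 to 3. The groups overlap there, since control library 3 lay above depleted libraries 1 and 2. In contrast, none of the 28 genes for small-subunit proteins of the mitochondrial ribosome was called by edgeR in either direction, against 28.3% of all tested genes, and their median was 0.16. DESeq2 and limma-voom called 0 as well, and 2 of the 28 had an unadjusted p under 0.05 in edgeR, 2 in limma-voom and 0 in DESeq2. For 1 of these 28 the depleted libraries lay wholly below, and for 4 wholly above, the control libraries, while groups were apart in either direction in 40.6% of all tested genes.

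Among genes without a paralog on the list, RPS3 fell the most. Rps3 (family name uS3) lines the mRNA entry channel in the head and is a stable part of the subunit only late in its maturation. RPS3 (YNL178W, chromosome XIV, 302680 to 303402, plus strand, R64 assembly, 1 exon) had 1787, 1348 and 1306 CPM in depleted libraries 1 to 3, against 7367, 7514 and 6367 CPM in control libraries 1 to 3. The depleted libraries lay far below all control libraries. RPS3 fell 4.79-fold (log2 fold change -2.26 ± 0.13, SE, n = 3 in each group) with an edgeR adjusted p of 3.387e-10. RPS2, whose protein also borders the mRNA entry, had 634, 596 and 716 CPM in depleted libraries, against 2269, 2007 and 2181 CPM in control libraries. It fell 3.32-fold (log2 fold change -1.73 ± 0.12).

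RPS15 and RPS13 fell by nearly the same amount. Rps15 is a head protein needed for export of the pre-40S particle, and Rps13 belongs to the platform. RPS15 had 2017, 1516 and 1627 CPM in depleted libraries, against 4818, 4717 and 4719.6 CPM in control libraries (log2 fold change -1.47 ± 0.12). RPS13 had 1766, 1468 and 1709.9 CPM in depleted libraries, against 3506, 4571 and 5086 CPM in control libraries (-1.41 ± 0.14). In both genes every depleted library lay well below every control library, and their falls differed by less than their standard errors.

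RPS12, RPS20 and RPS28A fell the least of these genes. Rps12 forms part of the beak of the head, Rps20 sits near it and Rps28 is a small head protein at the mRNA exit. RPS12 had 2334, 1671 and 2139 CPM in depleted libraries, against 4502, 3970.1 and 4032 CPM in control libraries (log2 fold change -1.03 ± 0.13). RPS20 had 768, 928 and 963 CPM in depleted libraries, against 2054, 1586 and 1687 CPM in control libraries (-1.0 ± 0.13). RPS28A had 320.3, 391 and 368 CPM in depleted libraries, against 895, 533 and 652 CPM in control libraries (-0.94 ± 0.16). Control library 1 was the highest control library in all 3 genes. The edgeR adjusted p-values were 4.375e-06 for RPS12, 1.181e-05 for RPS20 and 0.000138 for RPS28A. RPS28A kept no call against a minimum change of 1.5-fold (glmTreat, edgeR adjusted p = 0.0549).

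**Figure D2:**
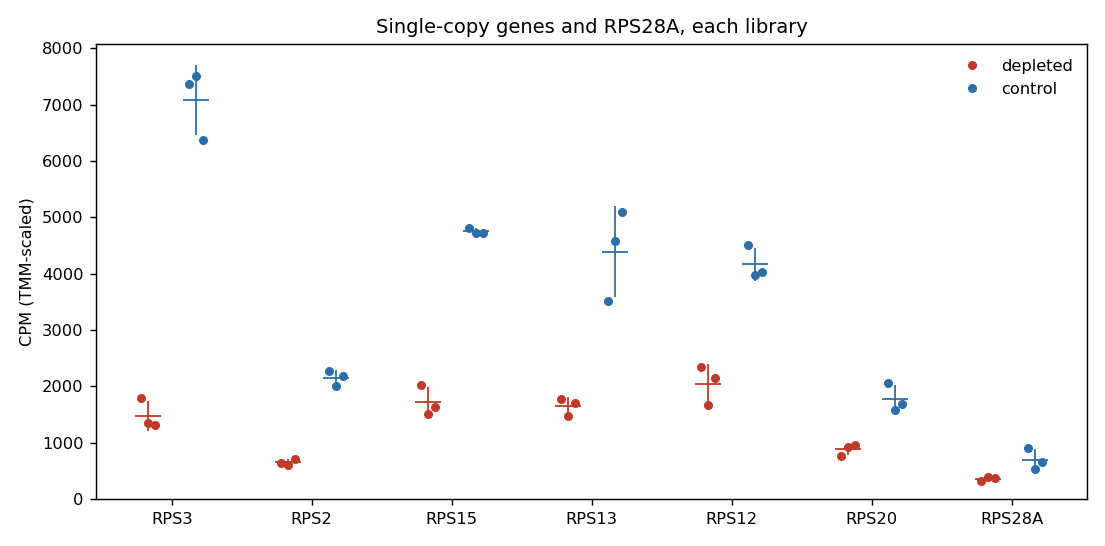
TMM-scaled CPM in each library for 6 of the 7 single-copy genes and RPS28A, with depleted libraries left and control libraries right and bars for the mean and SD. In every gene the 3 depleted points lie below the 3 control points, with the widest gap in RPS3.

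Of the 42 genes in complete pairs, both copies fell in all 21 pairs, but in 9 pairs the copies fell by different amounts. This was tested on the counts of both copies with the library as a block, so that depth and scaling cancel. The p-values were adjusted over 55 ribosomal protein pairs of both subunits. Of those 55, 43.6% were called, and of the 31 large-subunit pairs among them 38.7%. The share of 42.9% among the 21 small-subunit pairs is thus near the background. Copy A fell less in 6 of the 9 and copy B in 3. In 7 of the 9 the copy with more counts in control libraries was the one that fell less, as in 14 of all 21 pairs. The calls depended on single libraries: without depleted library 1, 2 of the 9 remained, and without control library 2, 5 remained. RPS30 and RPS7 were called under every one of the 10 alternatives tried. RPS24 was called under 9 of them, RPS29 under 8, RPS25 under 6, RPS23 and RPS26 under 5 and RPS21 under 4. The share of copy A did not overlap between depleted and control libraries in 10 of the 21 pairs, RPS6 and RPS16 among them, which were not called, and in 50.9% of the 55 pairs.

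RPS30 showed the widest split. Rps30 is a small basic protein of the body next to the decoding centre, and both genes encode the same residues. RPS30A (YLR287C-A, chromosome XII, 712537 to 713158, minus strand, 1 coding intron) had 1384, 2283 and 2527 CPM in depleted libraries, against 2880.1, 2903 and 3159.5 CPM in control libraries. Depleted library 1 was far below the other depleted libraries. RPS30B (YOR182C, chromosome XV, 678191 to 678793, minus strand, 1 coding intron) had 577, 679.9 and 799 CPM in depleted libraries, against 1778, 1884 and 2607 CPM in control libraries. RPS30A fell 1.44-fold and RPS30B 3.05-fold. Copy A made up 70.6%, 77.0% and 76.0% of the pair's counts in depleted libraries, against 61.8%, 60.7% and 54.8% in control libraries, and the groups did not overlap. The change of copy A minus that of copy B was 1.03 ± 0.16 on the log2 scale (SE, edgeR adjusted p = 8e-05).

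RPS30A was the weakest fall of all 50, at -0.53 ± 0.16 (SE, edgeR adjusted p = 0.0203). Its call was lost against a minimum change of 1.5-fold (glmTreat), as were those of RPS27A and RPS28A, and RPS30A alone also lost it in other settings. With library totals only its log2 fold change was -0.22 (adjusted p = 0.30), without depleted library 1 it was -0.32 (adjusted p = 0.0778) and without control library 3 it was -0.50 (adjusted p = 0.0697). Its direction stayed the same in these settings.

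RPS7 was the other pair with a wide split. Rps7 is a platform protein, and its copies are the most diverged of the 21 pairs in protein, differing at 23 of 190 positions. RPS7B (YNL096C, chromosome XIV, 443398 to 444315, minus strand) had 283, 332 and 213 CPM in depleted libraries, against 1477, 1132 and 1203 CPM in control libraries. RPS7A (YOR096W, chromosome XV, 505794 to 506767, plus strand) had 532, 470.1 and 495 CPM in depleted libraries, against 1221, 1254 and 1229.7 CPM in control libraries. In control libraries the copies were close, with copy A at 45.3%, 52.6% and 50.5% of the pair, while in depleted libraries copy A held 65.3%, 58.6% and 69.9%. RPS7B fell 4.6-fold and RPS7A 2.48-fold, a difference of 0.90 ± 0.19 on the log2 scale (SE, edgeR adjusted p = 0.0012).

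**Figure D3:**
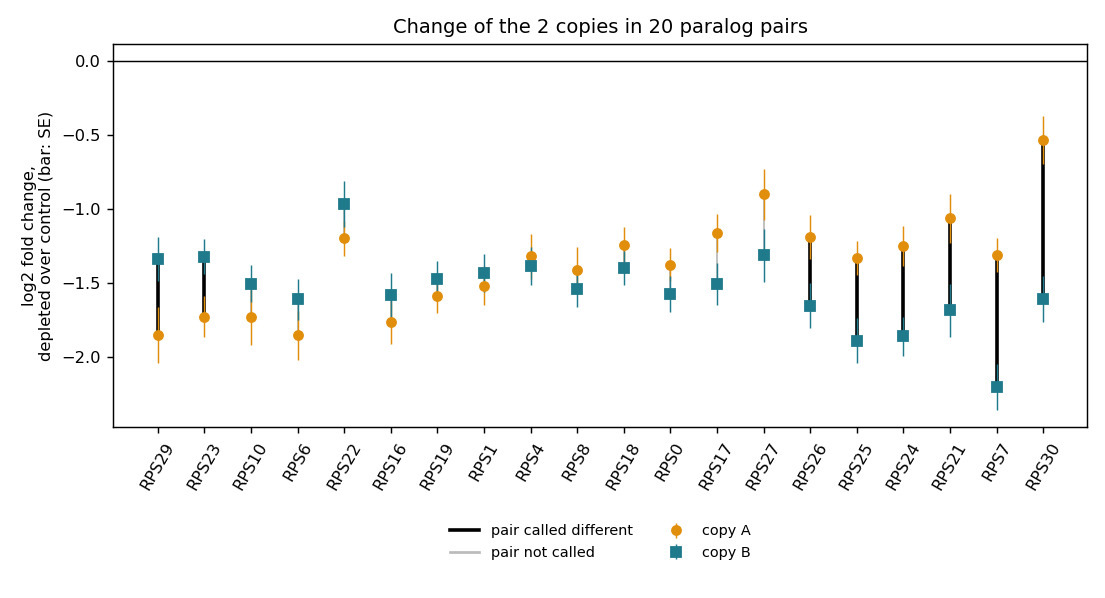
Log2 fold change, depleted over control, of copy A and copy B in 20 of the 21 complete pairs, each with its standard error and ordered by the difference. Thick lines join the copies of 8 pairs called different, with RPS30 and RPS7 the widest at 1.03 and 0.90.

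The other calls rested on smaller differences. RPS24 (body) and RPS25 (head) had minor B copies that fell more. RPS24B had 171, 206 and 231 CPM in depleted libraries, against 659, 729 and 826 CPM in control libraries, a 3.63-fold fall. RPS24A had 945, 813 and 785 CPM in depleted libraries, against 1785, 1909 and 2344 CPM in control libraries, a 2.38-fold fall. All depleted libraries had a higher share of RPS24A in the pair (77.3% to 84.7%) than all control libraries (72.4% to 73.9%). RPS25B had 339.8, 467 and 287 CPM in depleted libraries, against 1274, 1427 and 1361 CPM in control libraries, a 3.71-fold fall. RPS25A had 1719.6, 1582 and 1829 CPM in depleted libraries, against 4436, 4004 and 4462 CPM in control libraries, a 2.51-fold fall. Here the copy share of depleted library 2 (77.2% A) fell within the control range (73.7% to 77.7%). The differences were 0.61 ± 0.17 for RPS24 (edgeR adjusted p = 0.0103) and 0.58 ± 0.19 for RPS25 (edgeR adjusted p = 0.019).

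RPS29 and RPS23 are pairs in which copy A fell more. Rps29, a zinc-binding head protein, is made mostly from RPS29B: copy A held 5.36%, 6.67% and 6.33% of the pair's counts in depleted libraries, against 7.98%, 7.75% and 10.5% in control libraries. RPS29A fell 3.61-fold and RPS29B 2.53-fold, a difference of -0.54 ± 0.17 (edgeR adjusted p = 0.0168). RPS23, for the protein at the decoding centre, held 50.8%, 50.8% and 43.2% copy A in depleted libraries, against 52.2%, 56.6% and 57.7% in control libraries (-0.42 ± 0.15, edgeR adjusted p = 0.035). RPS23A fell 3.31-fold and RPS23B 2.50-fold.

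RPS26 and RPS21 were also called, with copy A falling less in both. Rps26 sits at the mRNA exit on the platform, and RPS26A held 68.8%, 70.6% and 72.4% of the pair in depleted libraries, against 61.4%, 62.3% and 68.1% in control libraries (0.44 ± 0.15, edgeR adjusted p = 0.0266). RPS26A fell 2.28-fold and RPS26B 3.14-fold. RPS21, for a small body protein, was named after its value was seen. Its copy A held 71.7%, 76.3% and 73.6% in depleted libraries, against 63.5%, 64.4% and 66.1% in control libraries (0.63 ± 0.24, edgeR adjusted p = 0.0374). RPS21A fell 2.09-fold and RPS21B 3.21-fold. The 95% Wilson interval of a copy share was between 0.624 and 6.45 percentage points to either side and covers counting error only.

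**Figure D4:**
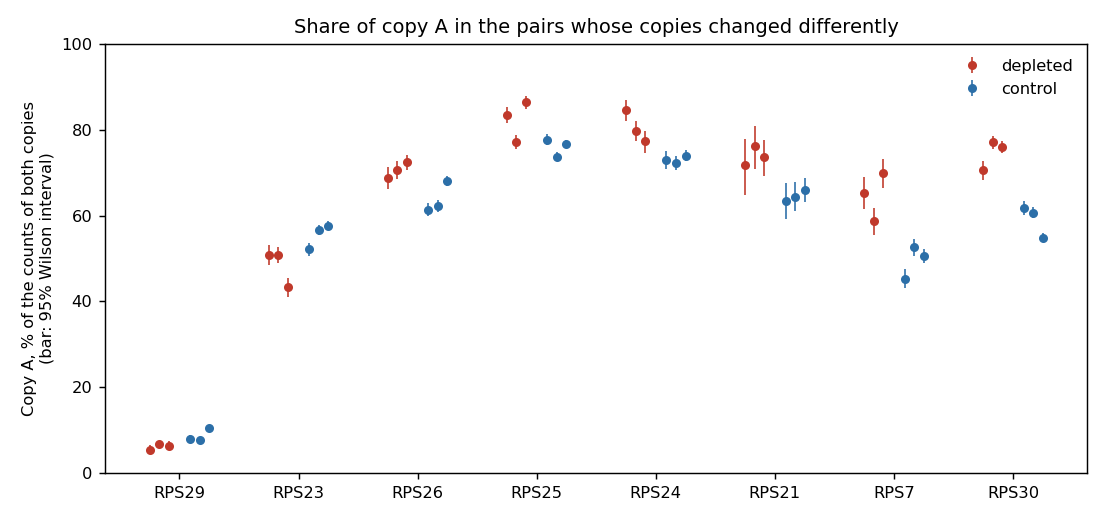
Share of copy A in the counts of both copies for 8 of the 9 called pairs, per library with its 95% Wilson interval, depleted left and control right. The groups are apart in 7 of these 8 pairs, which were chosen for their difference, and in RPS25 depleted library 2 lies within the control range.

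In 12 pairs no difference between the copies was called. The smallest were those of RPS4 and RPS1. RPS4A fell 2.50-fold and RPS4B 2.61-fold, a difference of 0.06 with a 95% interval of -0.25 to 0.37. RPS1A fell 2.86-fold and RPS1B 2.70-fold, a difference of -0.09 with an interval of -0.39 to 0.21. Over the 12 pairs, the intervals reached from -0.73 (RPS10) to 0.88 (RPS27), so differences of the size called in other pairs were not detectable in some of them. RPS27A and RPS22B, the lower-count copies of their pairs, were among the 4 genes that fell less than 2-fold. RPS27A had 152, 257 and 261 CPM in depleted libraries, against 356, 364 and 533 CPM in control libraries (log2 fold change -0.90 ± 0.17), and it was not called against a minimum change of 1.5-fold (glmTreat, edgeR adjusted p = 0.126). RPS22B had 94.7, 111 and 162 CPM in depleted libraries, against 235, 239.7 and 247 CPM in control libraries (-0.97 ± 0.15). A coding intron of RPS22B holds the snoRNA gene SNR44, the only annotated gene that overlaps any of the 50 between start and stop codon.

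Near-identical copies lose reads, since a read that aligns to both is in neither count. Coding identity within the 21 pairs ran from 84.3% to 99.2%, and 9 pairs encode identical proteins, of which 4 were among those called different. All 50-base stretches of the coding exons were unique in the R64 genome for 24 of the 50 genes. The share was under 80% in 8 genes, lowest in RPS8A and RPS8B (24.9%), RPS6A and RPS6B (27.3%) and RPS4A and RPS4B (52.3%). RPS24A and RPS24B, a pair called different, were also among the 8, with a mean share of 61.5%. Levels of the 8 genes are understated. The 8 genes had a median log2 fold change of -1.48 and the other 42 one of -1.42. The read length is not given in the sources used here, so 50 bases stands in for it.

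Summed over copies, the transcripts of all 28 proteins with every gene on the list had lower CPM, but not by the same share. Depleted levels, as a share of control, ran from 20.9% for RPS3 to 54.2% for RPS30, with a median of 37.1%. Single-copy genes held both RPS3 and the next to last, RPS20, at 49.9%. The SD of the log2 ratio was 0.43 over the 7 single-copy proteins and 0.20 over the 21 proteins with paralogs. The second value is taken on sums over both copies, which average the changes of the copies. Gene by gene, the SD of the log2 fold change over the 42 genes of complete pairs was 0.30. The first value rests on few genes and includes RPS3, at -2.26, with RPS2 next at -1.73. The difference in spread was not tested. Per kilobase of coding length, summed levels spanned 16.9-fold between proteins in depleted libraries and 13.7-fold in control libraries. RPS29B was the most abundant single gene in control libraries per length, at 13019 ± 3476 CPM per kilobase in depleted and 32930 ± 3305 CPM per kilobase in control libraries (SD, n = 3 each). RPS22B was the least, at 311 ± 89.2 CPM per kilobase in depleted and 611 ± 15.6 CPM per kilobase in control libraries.

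**Figure D5:**
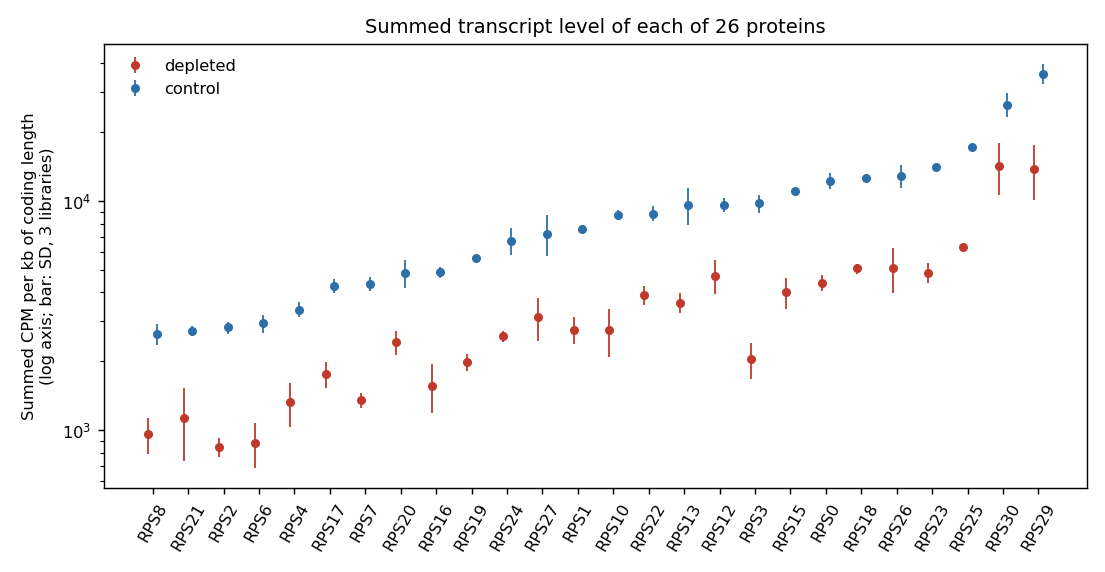
Summed TMM-scaled CPM per kilobase of coding length for 26 of the 28 proteins on a log axis, mean and SD of 3 libraries, depleted left and control right, ordered by the control level. The distance between the points is greatest for RPS3, at 20.9% of control, and least for RPS30, at 54.2%.

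The stretches upstream of 5 genes are printed because they compare copies that fell by different amounts, with RPS3, the gene that fell the most. Each is the coding strand from 400 to 101 bases before the start codon in R64, read 5′ to 3′, with matches to the Rap1 core ACCCNNACA on either strand in capitals. The positions are chrV:305923-306222 (plus strand) and chrIX:232470-232769 (minus) for the RPS24 copies, chrXI:551257-551556 (plus) and chrX:157374-157673 (minus) for the RPS21 copies, and chrXIV:302280-302579 (plus) for RPS3.
RPS24A: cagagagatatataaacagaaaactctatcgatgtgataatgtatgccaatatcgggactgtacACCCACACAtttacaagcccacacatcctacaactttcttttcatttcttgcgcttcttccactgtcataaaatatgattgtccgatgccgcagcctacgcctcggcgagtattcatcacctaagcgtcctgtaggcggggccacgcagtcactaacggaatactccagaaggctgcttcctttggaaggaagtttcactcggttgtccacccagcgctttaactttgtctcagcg
RPS24B: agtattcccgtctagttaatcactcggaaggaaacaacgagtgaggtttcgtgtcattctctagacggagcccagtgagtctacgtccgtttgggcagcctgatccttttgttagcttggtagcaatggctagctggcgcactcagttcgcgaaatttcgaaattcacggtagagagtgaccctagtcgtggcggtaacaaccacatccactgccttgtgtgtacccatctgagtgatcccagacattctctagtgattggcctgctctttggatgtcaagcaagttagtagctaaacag
RPS21A: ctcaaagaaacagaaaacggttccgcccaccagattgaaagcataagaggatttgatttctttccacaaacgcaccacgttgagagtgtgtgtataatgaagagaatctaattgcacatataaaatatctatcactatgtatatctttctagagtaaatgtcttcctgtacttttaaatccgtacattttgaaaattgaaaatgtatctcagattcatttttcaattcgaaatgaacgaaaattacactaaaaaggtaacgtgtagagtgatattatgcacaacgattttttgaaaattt
RPS21B: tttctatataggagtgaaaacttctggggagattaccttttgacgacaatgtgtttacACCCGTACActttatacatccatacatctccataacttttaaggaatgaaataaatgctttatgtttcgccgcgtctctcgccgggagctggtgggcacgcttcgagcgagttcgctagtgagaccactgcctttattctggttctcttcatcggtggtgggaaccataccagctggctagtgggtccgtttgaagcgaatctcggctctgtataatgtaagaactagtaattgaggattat
RPS3: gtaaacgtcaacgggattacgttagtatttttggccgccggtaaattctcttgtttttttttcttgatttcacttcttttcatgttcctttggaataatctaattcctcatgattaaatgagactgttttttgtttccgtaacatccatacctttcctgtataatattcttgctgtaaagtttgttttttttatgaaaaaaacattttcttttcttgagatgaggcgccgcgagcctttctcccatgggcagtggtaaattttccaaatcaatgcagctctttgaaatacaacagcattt
RPS24A and RPS21B hold 1 match each, and RPS24B, RPS21A and RPS3 hold none in this window. Only exact matches to this pattern are in capitals, so a stretch without capitals may still hold a Rap1 site of another form.

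Within 500 bases before the start codon, the Rap1 core was found in 18 of the 50 genes (36.0%), 35 of 76 large-subunit genes (46.1%) and 328 of 5986 protein-coding genes (5.48%). The stricter ACCCANACA, which it contains as a special case, was found in 16 of the 50 genes (32.0%) and 3.09% of all. No other form of a Rap1 site was searched for, so genes without a match may still hold one. The 18 genes with the core had log2 fold changes between -1.85 and -1.25 with a median of -1.5, and the 32 without it between -2.26 and -0.53 with a median of -1.40. In 11 pairs exactly 1 copy held the core, and that copy fell less in 5 pairs and more in 6. Of the 5 such pairs called different, it fell less in 4, RPS7, RPS23 and RPS24 among them, and more in RPS21. The remaining 4 called pairs held it in neither copy. Other motifs were searched on both strands as well. AAAAATTT, the RRPE element, was in 20.0% of the 50 and 20.5% of all genes, and TATAAA in 52.0% of the 50 and 60.5% of all genes. A run of 10 T or 10 A was in 12% of the 50, 38.2% of the large-subunit genes and 23.7% of all.

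Of the 7 small-subunit genes outside the list, all were called lower, with log2 fold changes of -2.14 (RPS9A), -2.09 (RPS31), -2.07 (RPS28B), -1.52 (RPS9B), -1.37 (ASC1), -1.34 (RPS14B) and -0.83 (RPS14A). RPS28A, which is on the list, fell less than RPS28B, its paralog (pair difference 1.19 ± 0.27, edgeR adjusted p = 0.0016).

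Genes that regulate or serve the ribosomal proteins changed less. Of 12 regulators of ribosomal protein genes, 11 passed the count filter, 3 were lower and none higher. Calls in either direction made up 28.3% of all tested genes, and calls lower 14.1%. The count of 3 of 11 is near the first share and above the second, and the difference was not tested. The median change of the regulators was -0.11 on the log2 scale. RAP1 had 193, 232 and 198 CPM in depleted libraries, against 260.3, 304 and 271 CPM in control libraries (-0.42 ± 0.11, edgeR adjusted p = 0.00972). STB3, a repressor that binds the RRPE element, fell by 0.72 ± 0.21 on the log2 scale (edgeR adjusted p = 0.0152), and UTP22, which joins Ifh1 and casein kinase 2 in a complex, fell by 0.70 ± 0.12 (edgeR adjusted p = 0.000217). FHL1 (-0.05), IFH1 (-0.34) and SFP1 (-0.20) were not called. Of 5 chaperones and partners of single small-subunit proteins 1 was called higher, as were 14.1% of all tested genes. In 3 of the 5 all depleted libraries lay above all control libraries, as in 1069 of the 5195 tested genes. The called gene was LTV1, which accompanies Rps3. It had 122, 151 and 134 CPM in depleted libraries, against 91.5, 100.8 and 111 CPM in control libraries (0.41 ± 0.14, edgeR adjusted p = 0.0387). The other 4 were not called, with log2 fold changes of 0.12 (YAR1), 0.27 (TSR4), 0.38 (TSR2) and 0.39 (FAP7).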

How the data were processed

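The authors deposited 1 table of raw counts per library, with a row for each gene. The submitters' processing notes name build sacCer3 and the tools HTSeq, DESeq and TopHat2 2.0.8. Settings, strand option and gene models: not given in the sources used here. RNA was rRNA-depleted total RNA, per the labels' protocols. The 5 summary rows (no feature, ambiguous, not unique and others) were left out, and 6008 of 6692 identifiers matched the RefSeq table of R64, the assembly also called sacCer3. Coordinates and sequences come from the RefSeq R64 genome and annotation. The test was the quasi-likelihood test of edgeR 4.0.16 (R 4.3.3) on 2 groups, after TMM scaling and a filter (filterByExpr, minimum count 10 and total 15); limma 3.58.1 and DESeq2 1.42.0 served as alternatives. CPM uses TMM-scaled library sizes. A standard error is the size of the log2 change divided by the root of the F statistic, and changes are given as depleted over control. The pair test used ribosomal protein pairs with a mean of at least 10 counts for each copy. Both tests were checked on simulated counts. Genes named are those without a paralog on the list, the 4 largest and 4 smallest changes, the 8 pairs with the smallest p among those called, the 2 pairs with the smallest difference and the extremes of abundance. Genes named otherwise only as minima, maxima or counts were chosen after their values were seen. The members and lists were chosen with earlier results of these data known. The labels state no pairing, and the test did not pair libraries. Deviations of same-numbered libraries correlated at -0.05, 0.00 and 0.07, which cannot show whether the cultures were paired. The values of some genes are not reported here, although counts and medians over the 50 genes include them.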

Additional observations from a re-analysis of the deposited data

How the results depend on the processing

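The call of 50 lower genes held with RLE size factors, TMM factors taken without ribosomal protein genes, no count filter, a mean of at least 50 counts, DESeq2, limma-voom, removal of the YLR154 rows and the replicate block, and was 49 with library totals only (without RPS30A), 47 against a change of 1.5-fold (without RPS30A, RPS28A and RPS27A) and 49 to 50 when 1 library was left out. Library totals only moved the median of all genes to 0.32 and gave 313 genes lower and 1748 higher, against 735 and 734, while the median of the 50 genes was -1.11. Against 1.5-fold, 190 genes were lower and 204 higher. The pair count of 9 was 6 with limma on the log2 ratio, 8 with the replicate block (copy by replicate number), 9 with a mean of at least 50 counts or with the subunits fitted separately, and 2 to 9 when 1 library was left out. Same-numbered libraries share only a number. The difference in the summed share of gene counts, depleted minus control, was -5.22 percentage points, -5.22 without the YLR154 rows, -6.82 over TMM-scaled library sizes and -5.29 to -5.17 when 1 library was left out. The larger value follows from the scaling, which enlarges depleted and shrinks control libraries. No alternative reversed the direction of any of the 50 genes. The widest copy-share interval was that of RPS21 in depleted library 1, where RPS21B had 52 reads. A low count of 1 copy did not always go with a wide interval. With 81 reads of RPS29A in depleted library 1, the interval of RPS29 was 1.14 percentage points to either side.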

Other observations

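Several of these genes lie near another ribosomal protein gene. Within 5000 bases there were 8 such neighbours, 5 of them in divergent orientation. Other genes in between were not looked for, so a neighbour here need not be the adjacent gene. The pairs RPS16A with RPL13B and RPS16B with RPL13A recur on 2 chromosomes. Likewise RPS17A with RPS18B, 2060 bases apart, and RPS17B with RPS18A, 4369 bases apart, recur on 2 chromosomes. The log2 fold change of the small-subunit gene minus that of its neighbour ran from -0.89 to 0.31 over the 8. It was 0.03 for RPS16B (-1.58) with RPL13A (-1.61), 634 bases apart, and -0.36 for RPS16A (-1.77) with RPL13B (-1.41), 720.0 bases apart. Differences between neighbours were not tested. RPS22A (-1.20) has RPS14B (-1.34) 298 bases away in convergent orientation and RPL39 (-1.51) 630.0 bases away in divergent orientation. The neighbours singled out here were chosen with their values known.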
